A study of Mus musculus with 12 samples.

Results

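The genes described here are 46 interleukin and interleukin receptor genes of the 750 genes on a mouse immune panel. They are the genes whose symbol starts with Il and a digit, 59 in all, without 13 (Il1a, Il1b, Il1rn, Il1r1, Il1r2, Il2ra, Il2rb, Il2rg, Il5ra, Il6, Il7r, Il15 and Il15ra). Membership rested on the symbol alone and used no measured value. By their known products, 24 of the 46 encode secreted ligands and 22 encode receptor chains or decoys. The panel was read on the NanoString nCounter system, which counts colour-coded probes bound directly to RNA, with no amplification step.

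The samples were 2 replicates of the cultured mT3-2D line (called cultures here), a murine pancreatic cancer line of the KPC model, and 10 whole tumours of that line. 5 tumours had grown under the skin of WT hosts, which are immunocompetent, and 5 under the skin of SCID hosts, an immunodeficient strain that lacks functional T and B cells and keeps NK cells and myeloid cells. The labels give no host age, sex or further strain detail, and all tumours come from 1 cell line. WT tumours 2 and 3 had counts that differed by little more than counting noise (chi-square of 1.20 for each degree of freedom, where the remaining 19 pairs within a host gave 17.1 to 84.5), so they were averaged and counted as 1 sample, giving n = 4 for WT. Their titles name them as different tumours with different numbers, and whether they are 1 RNA read again cannot be told from the labels. The 2 line samples also differed little, with a chi-square of 1.64 for each degree of freedom, and were kept as n = 2. The labels call them replicates and do not say whether they are separate cultures or 1 RNA read again. If they are 1 RNA, the line's own spread in the tests against it is technical alone. Some tumours share a number in their titles, and the labels do not say which tumours grew in different animals. The p-values therefore speak only of the variation among these tumours and cultures, which may be partly technical.

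Interleukins are small secreted proteins by which leukocytes, stromal cells and epithelia signal to one another. Most work through a private receptor chain paired with a shared one, such as gp130 (encoded by Il6st) or the common beta chain (Csf2rb), and pass the signal to JAK kinases and STAT factors. Receptors of the IL-1 family instead recruit MyD88. In pancreatic tumours many of these ligands come from lymphocytes, macrophages and fibroblasts, whereas receptors such as Il22ra1, Il17ra and Il4ra are also found on epithelial cells.

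Levels are given as log2 of the normalised probe count. A background level was set from 33 T and B cell genes in the cultured line, at the 95th percentile of their counts, 38.25 counts. Each sample's own scaling puts that level at a mean log2 level of 4.75 in the line, 5.39 in WT tumours and 5.29 in SCID tumours. A probe with the same raw count in every sample would thus read 0.64 higher in WT tumours than in the line, and 0.54 higher in SCID tumours. Total counts ran from 368925 to 558445 per sample. Of the 750 genes, 298 to 307 lay above background in the line, 484 to 551 in WT tumours against 416 to 470 in those of SCID hosts.

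Of the 46 genes, 23 lay above background in at least 1 of the 12 samples, and these were mostly receptors: 16 of the 22 receptor genes but 7 of the 24 ligand genes. The line had 9 of them above background (8 in both cultures), WT tumours 21 and SCID tumours 19. The measured ligands were Il11, Il16, Il17b, Il18, Il24, Il34 and Il7. At background in all 12 samples, with 4 to 35 counts each, were the ligands Il2, Il3, Il4, Il5, Il9, Il10, Il12a, Il12b, Il13, Il17a, Il17f, Il19, Il21, Il22, Il23a, Il25 and Il27. The receptor genes Il12rb1, Il12rb2, Il13ra2, Il17rb, Il22ra2 and Il23r were at background throughout as well. These ligands include the signature cytokines of helper T cell subsets, and at this depth neither host's tumours gave a measurable level of Il4, Il5, Il13, Il17a, Il21 or Il22.

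**Figure D1:**
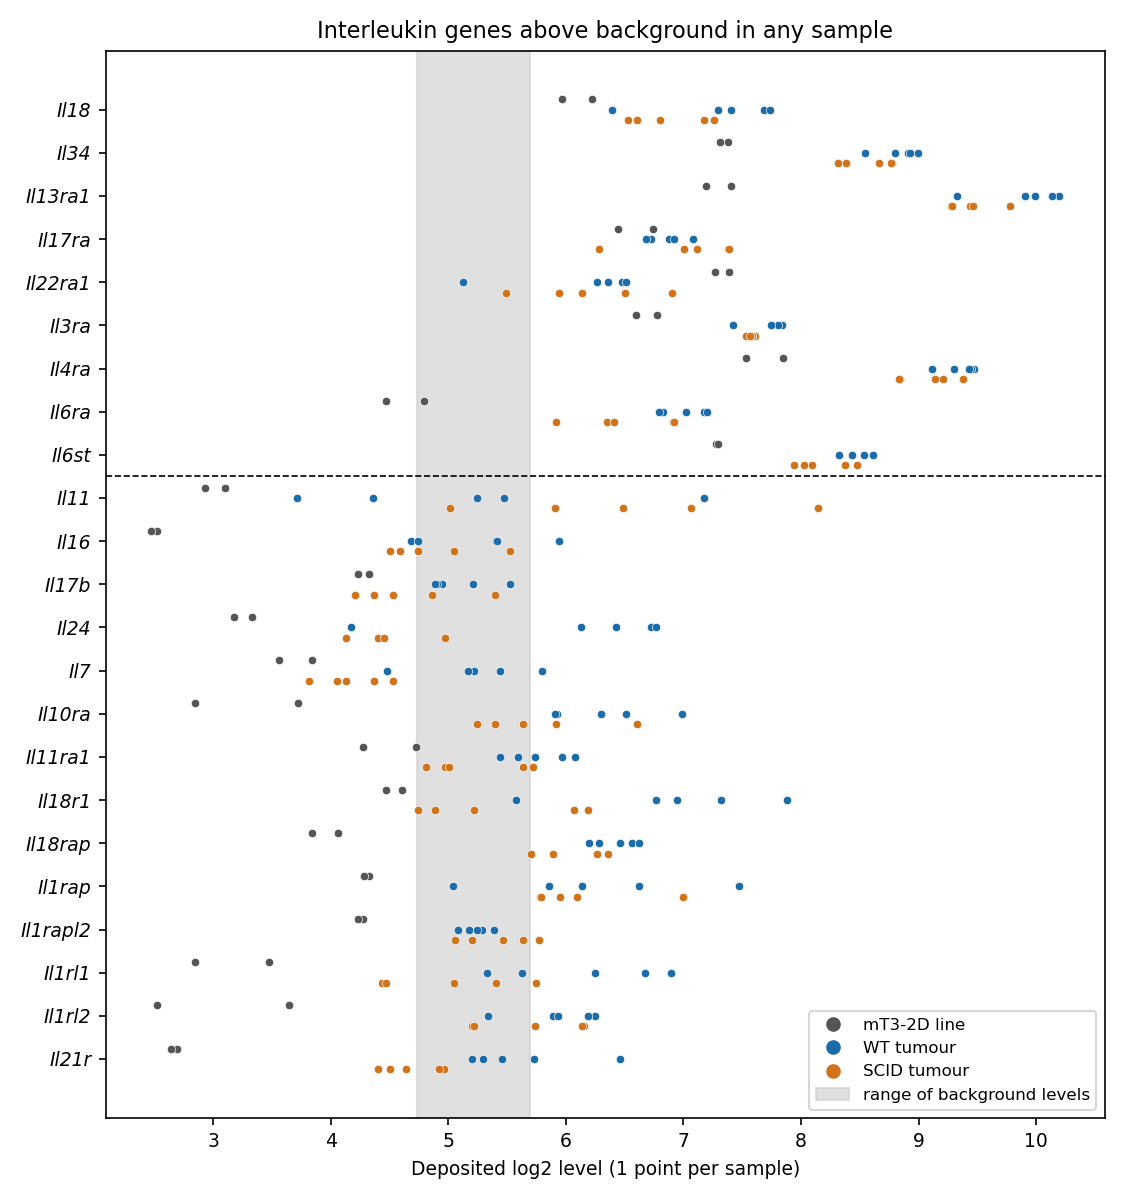
Deposited log2 level (horizontal axis) of the 23 genes above background in at least 1 sample, with 1 point per culture (grey), WT tumour (blue) and SCID tumour (orange); the grey band spans the samples' background levels, and the 9 genes above background in the line stand over the dashed line. Il13ra1 and Il4ra lie right of the band in every sample, whereas Il10ra, Il16 and Il21r lie left of it in both cultures.

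SCID tumours were compared with WT tumours to see which interleukin genes differ with the host. The receptor gene Il21r and the ligand gene Il7 were lower in SCID tumours, and of the other genes only Il12rb2 passed the test, at background in both groups. Across the 46 genes, 3 were called lower (limma with Benjamini-Hochberg adjustment over all 750 genes, adjusted p under 0.05), which is 6.52%, against 15.7% of the panel. None was called higher by limma, against 0.133% of the panel, and none was higher at an unadjusted p under 0.05. The median difference of the 46 was -0.25 on the log2 scale, with 37 below 0, beside a median of -0.33 over all 750 genes, 614 of them below 0. The share called lower was thus no higher than that of the panel. In whole tumours, fewer cells of a type and less RNA per cell cannot be told apart.

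Il21r encodes the private chain of the IL-21 receptor, carried by T, B and NK cells. Its log2 level was 5.73, 5.29, 5.20, 5.45 and 6.46 in WT tumours 1 to 5, and 4.50, 4.64, 4.41, 4.96 and 4.92 in SCID tumours 1 to 5. The 2 cultures read 2.69 and 2.64. Every WT tumour lay above every SCID tumour, and both cultures lay below all tumours. In raw counts these are 29 to 86 in WT tumours, 21 to 31 in SCID tumours and 9 in each culture, so 3 of 5 WT tumours and no SCID tumour exceeded background. Il21r fell by 1.04 on the log2 scale in SCID tumours (standard error 0.25, 95% interval -1.60 to -0.48, adjusted p = 0.0201 by limma), and was at least 1.35-fold lower once the SCID level is taken as a bound. Without SCID tumour 3 the adjusted p was 0.0518. The ligand gene Il21 was at background everywhere.

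In the mouse genome Il21r lies directly beside Il4ra. Il4ra, above background in every sample, was not called between hosts (difference -0.25, 95% interval -0.63 to 0.13, adjusted p = 0.351 by limma). The 250 bases before the transcript start listed for Il21r in RefSeq's promoter table (GRCm38.p6, plus strand) are shown because this gene separated the hosts without overlap. RefSeq's outermost start of the gene falls inside this window, and so it does for Il12rb2. They hold no match to TTCNNNGAA (GAS, a motif that STAT factors bind), to the interferon-stimulated response element (ISRE) or to TGANTCA (AP-1) on either strand. The window of Il12rb2 (minus strand) holds a GAS match, in capitals; 8.13% of 27025 mouse genes have one in a window of this length, and 3 of the 34 genes described here that have a window (Il12rb2, Il18r1 and Il19).
Il21r chr7:125603179-125603428: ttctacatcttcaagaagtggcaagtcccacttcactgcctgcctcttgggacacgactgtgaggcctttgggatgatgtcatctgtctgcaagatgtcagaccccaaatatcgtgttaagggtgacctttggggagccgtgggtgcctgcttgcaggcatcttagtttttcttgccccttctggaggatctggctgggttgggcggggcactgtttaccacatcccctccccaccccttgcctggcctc
Il12rb2 chr6:67376189-67376438: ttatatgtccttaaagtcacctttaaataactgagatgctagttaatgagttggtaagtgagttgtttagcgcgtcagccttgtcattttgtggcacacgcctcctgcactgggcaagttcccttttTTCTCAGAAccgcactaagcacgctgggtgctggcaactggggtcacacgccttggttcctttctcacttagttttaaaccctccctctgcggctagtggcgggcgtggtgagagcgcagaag

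Il12rb2, the signalling chain of the IL-12 receptor, was called lower in SCID tumours by 0.83 (standard error 0.25, adjusted p = 0.0492 by limma), but its counts were 11 to 22 in WT tumours against 5 to 11 in those of SCID hosts, all at background, so no level or fold is given. The call was lost in 9 of 11 fits that left out a sample.

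Il7 encodes the stromal cytokine on which lymphocytes depend for survival. Its log2 level was 4.48, 5.79, 5.44, 5.22 and 5.17 in WT tumours 1 to 5, and 3.81, 4.13, 4.05, 4.53 and 4.37 in SCID tumours 1 to 5. WT tumour 1 lay just below SCID tumour 4, and all other WT tumours lay above all SCID tumours. In counts this is 21 to 41 in WT tumours against 13 to 23 in those of SCID hosts. Il7 fell by 0.94 on the log2 scale (standard error 0.24, adjusted p = 0.0265 by limma), but only WT tumours 2 and 3, counted here as 1 sample, exceeded background. The call was lost without that pair, WT tumour 4 or 5, or SCID tumour 1, 2 or 3, at an adjusted p up to 0.0726. Under TMM scaling, under scaling to each sample's median, or with low values raised to background, none of the 3 genes was called lower by limma. The raised values used 1 floor for all samples, 5.69, the highest background level of any sample (WT tumour 2).

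Beside these genes the summed T and B cell markers were higher in WT than in SCID tumours, with most of the B cell genes at background. The summed normalised counts of 18 T cell genes were 571 to 902 in WT tumours against 300 to 417 in those of SCID hosts, against 225 to 260 in the line, with 9 of the 18 above background in WT tumours and 1 in SCID tumours. The 15 B cell genes summed to 382 to 504 in WT tumours against 265 to 375 in those of SCID hosts, with 3 above background in each. In the line they summed to 257 to 265, with 1 above background, so the SCID range began at the level of the line. These sums are on the normalised scale, where equal counts read higher in tumours than in the line. The 6 pan-leukocyte genes summed to 824 to 1336 in WT tumours against 409 to 831 in those of SCID hosts. The 6 NK cell genes overlapped between hosts, at 556 to 707 in WT and 440 to 1132 in SCID tumours. The part of these cells in the levels of Il21r, Il7 and Il12rb2 was not tested.

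Il18r1, Il24 and Il1rl1 had the largest differences downward that missed the threshold. Il18r1, the ligand-binding chain of the IL-18 receptor, read 5.58, 6.94, 6.77, 7.32 and 7.88 on the log2 scale in WT tumours 1 to 5 and 6.07, 4.89, 6.19, 5.22 and 4.74 in SCID tumours 1 to 5. Only WT tumour 1 lay within the SCID range. The difference was -1.49 (standard error 0.47, adjusted p = 0.0567 by limma). Il24, an IL-10 family cytokine, read 4.17, 6.72, 6.77, 6.13 and 6.43 in WT tumours and 4.97, 4.13, 4.41, 4.40 and 4.45 in SCID tumours. Again WT tumour 1 alone fell among the SCID tumours, all of which were at background (difference -1.40, standard error 0.46, adjusted p = 0.0639 by limma). Il1rl1, the IL-33 receptor of mast cells and regulatory T cells, differed by -0.98 (standard error 0.36, adjusted p = 0.0907 by limma), with groups that overlapped. All 3 genes were called lower with WT tumours 2 and 3 kept apart, on their own or with a block for the titles (limma, adjusted p under 0.05). Those fits count the near-identical pair as 2 samples. The 3 genes were also called lower without WT tumour 1, Il18r1 by 1.93 (adjusted p = 0.00928), Il24 by 1.96 (adjusted p = 8.02e-04) and Il1rl1 by 1.20 (adjusted p = 0.0495). WT tumour 1 had the lowest level of each among WT tumours, so these calls give no separate support. Over the other left-out samples the adjusted p (limma) reached 0.170 for Il18r1, 0.181 for Il24 and 0.227 for Il1rl1. None of the 3 was called under TMM scaling, under median scaling or with low values raised to background. Mast cell and basophil markers, 4 genes that include Kit and Fcer1a, summed to 121 to 342 in WT tumours against 100 to 150 in those of SCID hosts. The highest sums, 342 and 330, were those of WT tumours 2 and 3, counted here as 1 sample. WT tumours 1 and 4, at 121 and 142, lay within the SCID range, and WT tumour 5 read 202. The part of these markers in the level of Il1rl1 was not tested.

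Il11, a gp130 cytokine made by fibroblasts and epithelia, was the gene with the largest difference upward and the widest spread. Its log2 level was 7.17, 5.24, 5.47, 3.72 and 4.36 in WT tumours 1 to 5, and 5.02, 5.91, 6.48, 7.06 and 8.14 in SCID tumours 1 to 5. The hosts overlapped broadly, and counts ran from 12 to 136 in WT tumours against from 30 to 233 in those of SCID hosts. The difference of 1.37 (standard error 0.75, 95% interval -0.28 to 3.03) was not called (adjusted p = 0.227 by limma). Within each host the highest Il11 was in WT tumour 1 and SCID tumour 5, which also had the highest Il1rap (7.47 and 6.99) and the lowest Il22ra1 (5.13 and 5.49) of their host. The same tumours had the lowest summed counts of 4 epithelial genes of their host, 5097 and 4624, and the highest of 6 fibroblast genes, 58289 and 55748. Whether tissue makeup bears on these levels was not tested. Without both tumours, each the highest in Il11 of its host, 8 genes were called lower (Il12rb2, Il13ra1, Il13ra2, Il18r1, Il1rl1, Il21r, Il24 and Il7) and Il11 was called higher by 1.64 (adjusted p = 0.0491 by limma), in a fit that called 25.2% of the panel lower and 0.8% higher. Because both tumours were extreme in Il11, that call gives no separate support. No fit that left out 1 tumour or the averaged pair called Il11 (lowest adjusted p = 0.055 by limma).

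**Figure D2:**
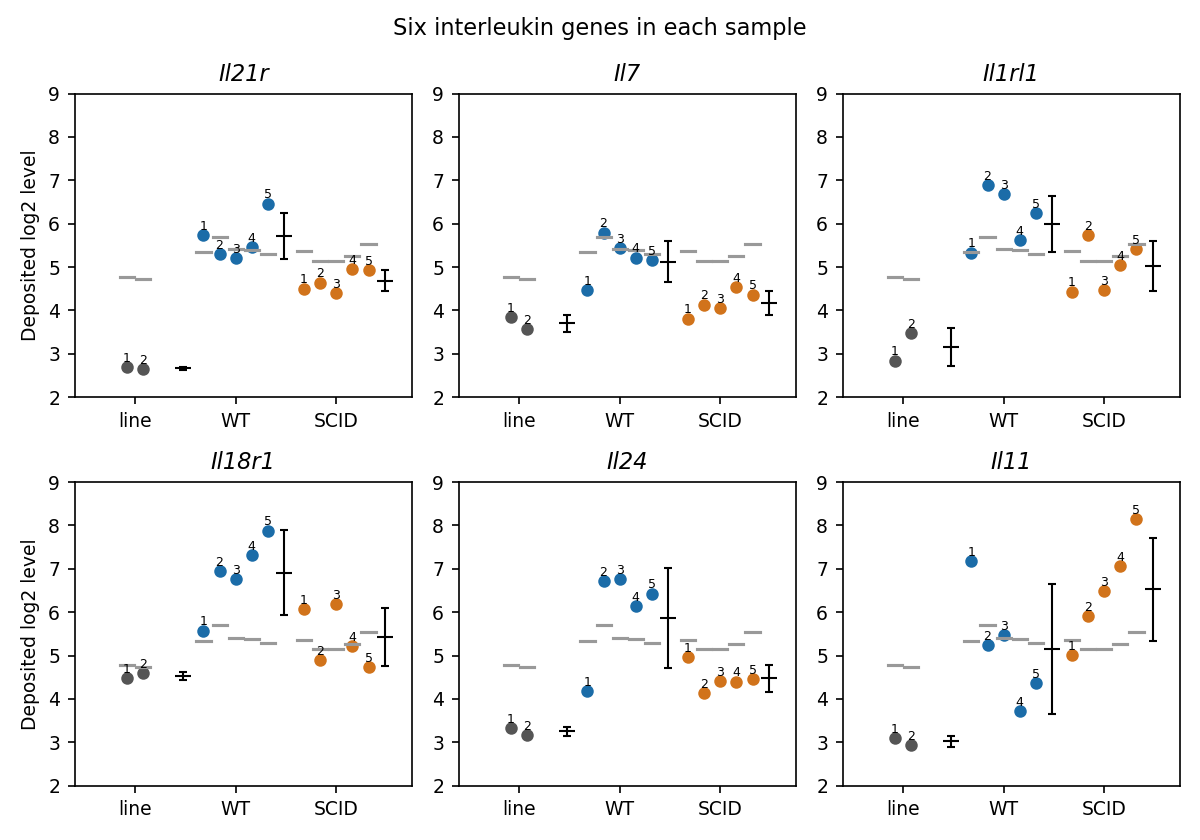
Log2 level of Il21r, Il7, Il18r1, Il24, Il1rl1 and Il11 in each sample (points) of the line, WT tumours and SCID tumours, numbered by replicate, with the group mean and SD in black (WT tumours 2 and 3 averaged, n = 4) and each sample's background level as a grey dash. Il21r separates the hosts completely, WT tumour 1 sits among the SCID tumours for Il18r1 and Il24, and Il11 overlaps broadly between hosts.

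The line itself carried 9 of the genes, most of them receptors. Those above background in culture were the receptor genes Il13ra1, Il4ra, Il6st, Il3ra, Il17ra, Il22ra1 and Il6ra and the ligand genes Il34 and Il18. Il6ra exceeded background in culture 2 alone, with 40 counts against 31 in culture 1. Il4ra and Il13ra1 together form the type II receptor for IL-4 and IL-13. None of the 9 was called between hosts by limma, and none at an unadjusted p under 0.05. Of the panel, 15.7% was called lower, and 238 of 750 genes had an unadjusted p under 0.05. The median difference of the 9 was -0.25, with a range from -0.46 to 0.16, beside -0.33 over all 750 genes. Whether the 9 differ from the panel was not tested. Il13ra1 was called lower without WT tumour 1 (adjusted p = 0.0329 by limma). That tumour had the lowest Il13ra1 of the WT tumours, so the call gives no separate support. Scaling to each sample's median called Il17ra higher, beside Il1rapl2, Il2 and Il21. The 95% intervals of the difference ran from -0.92 to 0.01 for Il13ra1 and from -0.36 to 0.68 for Il17ra.

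Tumours of each host were then compared with the cultured line. In WT tumours 33 of the 46 genes were called higher, 71.7%, against 67.1% of the panel, and 1 lower, against 2.67% of the panel. Of the 33, 15 lay at background in both groups, with log2 differences of 0.70 to 1.20, where equal counts already differ by 0.64. With the brighter group above background, 18 genes were called higher, 39.1% against 54.4% of the panel. In SCID tumours 19 were called higher than in the line, 41.3% against 51.6% of the panel, 14 of them with SCID tumours above background (30.4% against 40.3%), and 1 lower, against 2.8% of the panel. Both comparisons share the 2 cultures. TMM scaling left 10 genes called higher in WT tumours (32.8% of the panel) and 10 in SCID tumours (27.5% of the panel). Of the genes above background, it ended the calls of Il11ra1, Il1rap, Il34, Il3ra and Il6st in both hosts, of Il18, Il18r1 and Il7 in WT tumours and of Il1rapl2 in SCID tumours. With low values raised to background, only Il13ra1, Il18, Il18rap, Il34, Il3ra, Il4ra, Il6ra and Il6st stayed called higher in WT tumours (32.0% of the panel). In SCID tumours only Il13ra1, Il34, Il3ra, Il4ra and Il6st did (18.8% of the panel). All other calls, among them those of Il10ra, Il21r, Il1rl1, Il1rl2 and Il1rap, were then lost. The common floor of 5.69 lies above the line's mean background level of 4.75. It also replaced tumour values just above their own background, so these losses may come in part from the height of the floor. Scaling to each sample's median left none of the 46 called higher by limma (14.1% and 13.5% of the panel). The median gene of the line read 4.04 to 4.12, below the line's background level. The median difference from the line was 0.97 for the 46 genes in WT tumours (1.21 over all genes) and 0.76 in SCID tumours (0.81 over all genes).

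Among the genes at background in the line, the leukocyte receptor Il10ra, which binds IL-10, differed by 3.15 in WT tumours (standard error 0.41). Its log2 level was 2.84 and 3.72 in the cultures, 6.51, 5.93, 5.91, 6.30 and 6.99 in WT tumours 1 to 5, and 5.40, 5.24, 5.64, 5.91 and 6.60 in SCID tumours 1 to 5. All tumours lay above both cultures, and the hosts overlapped. Between hosts Il10ra was not called (difference -0.67, standard error 0.30, adjusted p = 0.158 by limma). It was called lower without SCID tumour 5 (adjusted p = 0.0362) and in the larger title series, which also leaves that tumour out. SCID tumour 5 had the highest Il10ra of the SCID tumours, so these calls give no separate support. Il10ra rose at least 3.20-fold in WT tumours (adjusted p = 3.72e-05 by limma) and at least 2.01-fold in SCID tumours (adjusted p = 2.71e-04), while its ligand gene Il10 was at background in all samples. Both calls of Il10ra were lost with low values raised to background.

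Il16 encodes a chemoattractant for cells that carry CD4, stored as a precursor in lymphocytes. It read 2.52 and 2.47 in the cultures, 5.41, 4.68, 4.74, 5.42 and 5.94 in WT tumours and 4.50, 4.74, 5.05, 4.59 and 5.53 in SCID tumours. The hosts overlapped. Il16 rose by 2.87 in WT tumours, at least 1.53-fold (adjusted p = 2.21e-05 by limma), while all 5 SCID tumours were at background, so no fold is given for them. Of the WT tumours, 3 of 5 exceeded background for Il16, with counts of 19 to 60 against 8 in each culture. Il21r rose by 3.06 in WT tumours, at least 1.96-fold (adjusted p = 5.68e-06).

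The IL-1 receptor family genes Il1rl2, Il1rl1, Il18r1 and Il18rap lie in a row on mouse chromosome 1, after Il1r2 and Il1r1, and all were at background in the line. Il1rl2, the IL-36 receptor, read 2.52 and 3.64 in the cultures, 5.89, 6.24, 5.93, 5.34 and 6.19 in WT tumours and 5.20, 6.15, 5.74, 5.22 and 6.14 in SCID tumours. It rose at least 2.18-fold in WT tumours (adjusted p = 7.18e-05 by limma) and at least 1.91-fold in SCID tumours (adjusted p = 1.34e-04), and the hosts overlapped throughout. Il1rl1 read 2.84 and 3.47 in the cultures, 5.33, 6.90, 6.68, 5.62 and 6.25 in WT tumours and 4.43, 5.74, 4.47, 5.05 and 5.41 in SCID tumours. It rose at least 2.37-fold in WT tumours (adjusted p = 2.19e-04) and at least 1.20-fold in SCID tumours (adjusted p = 0.00418), a call lost without culture 1 (adjusted p = 0.0615). Only 1 of 5 SCID tumours exceeded background for Il1rl1, with SCID counts of 20 to 58 against 10 and 16 in the cultures.

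Both chains of the IL-18 receptor rose in WT tumours over the line, and Il18rap also did in SCID tumours. Il18rap, the signalling chain, read 3.84 and 4.06 in the cultures, 6.19, 6.46, 6.56, 6.28 and 6.62 in WT tumours and 5.89, 6.26, 6.36, 5.71 and 5.71 in SCID tumours. It rose at least 3.13-fold in WT tumours (adjusted p = 4.28e-06 by limma) and at least 2.35-fold in SCID tumours (adjusted p = 2.11e-05). Il18r1 rose at least 4.45-fold in WT tumours (adjusted p = 0.00363) and was not called in SCID tumours (difference 0.88, adjusted p = 0.200). The ligand gene Il18, which the line itself carried at 6.22 and 5.97, rose 2.15-fold in WT tumours (adjusted p = 0.0141) and was not called in SCID tumours (difference 0.78, adjusted p = 0.0675). Il1rap, the chain that IL-1, IL-33 and IL-36 receptors share, rose at least 2.88-fold in WT tumours (adjusted p = 0.00775) and at least 2.58-fold in SCID tumours (adjusted p = 0.0134). Leaving out culture 2 lost the call of Il18 in WT tumours (adjusted p = 0.0944), and leaving out either culture lost that of Il1rap in SCID tumours (adjusted p up to 0.073). Il1rapl2, an orphan member of the family, exceeded background in 4 of 5 SCID tumours and no WT tumour, and rose at least 1.59-fold in SCID tumours (adjusted p = 6.76e-04); its difference between hosts was 0.22 and was not called.

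Of the gp130 system, Il6st read 7.27 and 7.29 in the cultures, 8.32 to 8.61 in WT tumours against 7.94 to 8.48 in those of SCID hosts. It rose 2.30-fold in WT tumours (adjusted p = 2.8e-04 by limma) and 1.86-fold in SCID tumours (adjusted p = 0.00234) over the line, and was called in neither under TMM scaling (adjusted p = 0.502 and 0.473). Il6ra, the IL-6 binding chain, read 4.47 and 4.80 in the cultures, 6.79 to 7.20 in WT tumours against 5.92 to 6.92 in those of SCID hosts, and rose 5.00-fold (adjusted p = 2.39e-05) and 3.64-fold (adjusted p = 1.47e-04). Culture 1 was at background and culture 2 just above it (31 and 40 counts), so these folds are imprecise. The call of Il6ra in SCID tumours was lost with low values raised to background. Il11ra1, the IL-11 binding chain, rose at least 1.96-fold (adjusted p = 0.00334) and at least 1.39-fold (adjusted p = 0.0494), the last lost in 9 of 13 fits that left out a sample, at an adjusted p up to 0.32. Its counts were 26 to 57 in SCID tumours, 2 of 5 above background, against 27 and 38 in the cultures. Il11 read 3.10 and 2.93 in the cultures, at background, with 12 and 11 counts, and WT tumour 4 had 12 counts as well. It rose at least 3.41-fold in SCID tumours (adjusted p = 0.0062). In WT tumours its difference of 2.13 was not called (adjusted p = 0.0579).

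The type II receptor for IL-4 and IL-13 was among the most raised of the genes that the line expresses. Il13ra1 read 7.41 and 7.20 in the cultures, 9.33, 9.91, 9.99, 10.20 and 10.13 in WT tumours and 9.78, 9.43, 9.28, 9.47 and 9.28 in SCID tumours. Every tumour lay above both cultures. It rose 6.06-fold in WT tumours (adjusted p = 4.87e-06 by limma) and 4.43-fold in SCID tumours (adjusted p = 2.48e-05). Il4ra read 7.85 and 7.53 in the cultures, 9.11 to 9.47 in WT tumours against 8.83 to 9.38 in those of SCID hosts, and rose 3.11-fold (adjusted p = 3.98e-05) and 2.62-fold (adjusted p = 1.59e-04). The ligand genes Il4 and Il13, neighbours on mouse chromosome 11, were at background in all samples.

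Il34, a second ligand of the macrophage receptor Csf1r, was measured in every sample. It read 7.38 and 7.31 in the cultures, 8.54 to 8.99 in WT tumours against 8.31 to 8.77 in those of SCID hosts, and rose 2.77-fold (adjusted p = 7.4e-05 by limma) and 2.36-fold (adjusted p = 3.03e-04). The receptor gene Csf1r was at background in the line and at least 28.1-fold higher in WT tumours and at least 15.6-fold higher in SCID tumours. Under TMM scaling Il34 was not called in either host (adjusted p = 0.116 and 0.0655). Il3ra, the IL-3 binding chain, read 6.78 and 6.59 in the cultures, 7.42 to 7.84 in WT tumours against 7.53 to 7.61 in those of SCID hosts, and rose 2.01-fold (adjusted p = 3.57e-04) and 1.85-fold (adjusted p = 9.83e-04), a rise not called under TMM scaling, where the difference was -0.026 in WT tumours and 0.17 in SCID tumours. Its partner chain gene Csf2rb was at background in the line and at least 12.1-fold higher in WT tumours (adjusted p = 9.08e-08), while the ligand gene Il3 was at background.

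Il22ra1, the chain through which IL-22, IL-20 and IL-24 act on epithelia, was the 1 gene lower in tumours of both hosts than in culture. Its log2 level was 7.38 and 7.27 in the cultures, 5.13, 6.48, 6.51, 6.36 and 6.26 in WT tumours 1 to 5, and 6.50, 6.13, 6.90, 5.94 and 5.49 in SCID tumours 1 to 5. Both cultures lay above every tumour. Il22ra1 fell by 1.26 in WT tumours (2.40-fold, standard error 0.43, adjusted p = 0.0203 by limma) and by 1.13 in SCID tumours (2.19-fold, standard error 0.41, adjusted p = 0.0354), and both calls were lost without either culture. The call in SCID tumours was also lost without SCID tumour 2, 4 or 5, and the adjusted p reached 0.0968 and 0.156 over all left-out samples. Summed epithelial counts were 16322 to 16703 in the line, 5097 to 20979 in WT tumours against 4624 to 19385 in those of SCID hosts. Their part in this level was not tested. Its 250 upstream bases (plus strand) are shown as those of the 1 gene that fell; they hold an AP-1 match, in capitals, as do 7.82% of mouse genes and 7 of the 34 genes described here that have a window.
Il22ra1 chr4:135727909-135728158: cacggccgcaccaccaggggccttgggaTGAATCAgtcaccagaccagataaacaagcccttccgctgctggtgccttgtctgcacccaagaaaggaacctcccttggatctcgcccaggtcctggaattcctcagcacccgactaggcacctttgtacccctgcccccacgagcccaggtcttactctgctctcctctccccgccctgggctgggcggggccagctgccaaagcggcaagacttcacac

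Il17ra, the chain shared by receptors of IL-17 cytokines, was not called in either comparison with the line. It read 6.74 and 6.44 in the cultures, 6.69 to 7.08 in WT tumours against 6.28 to 7.39 in those of SCID hosts, with differences of 0.28 (adjusted p = 0.398 by limma) and 0.44 (adjusted p = 0.200). Il17b, the 1 measured ligand of the IL-17 family, exceeded background in 1 of the 12 samples, SCID tumour 1, with 39 counts. Il24 rose at least 2.17-fold in WT tumours (adjusted p = 0.00159) and was not called in SCID tumours (difference 1.22, adjusted p = 0.0791). Il7 rose at least 1.29-fold in WT tumours (adjusted p = 0.00146), where only tumours 2 and 3 exceeded background. Its counts were 21 to 41 in WT tumours against 20 and 17 in the cultures.

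**Figure D3:**
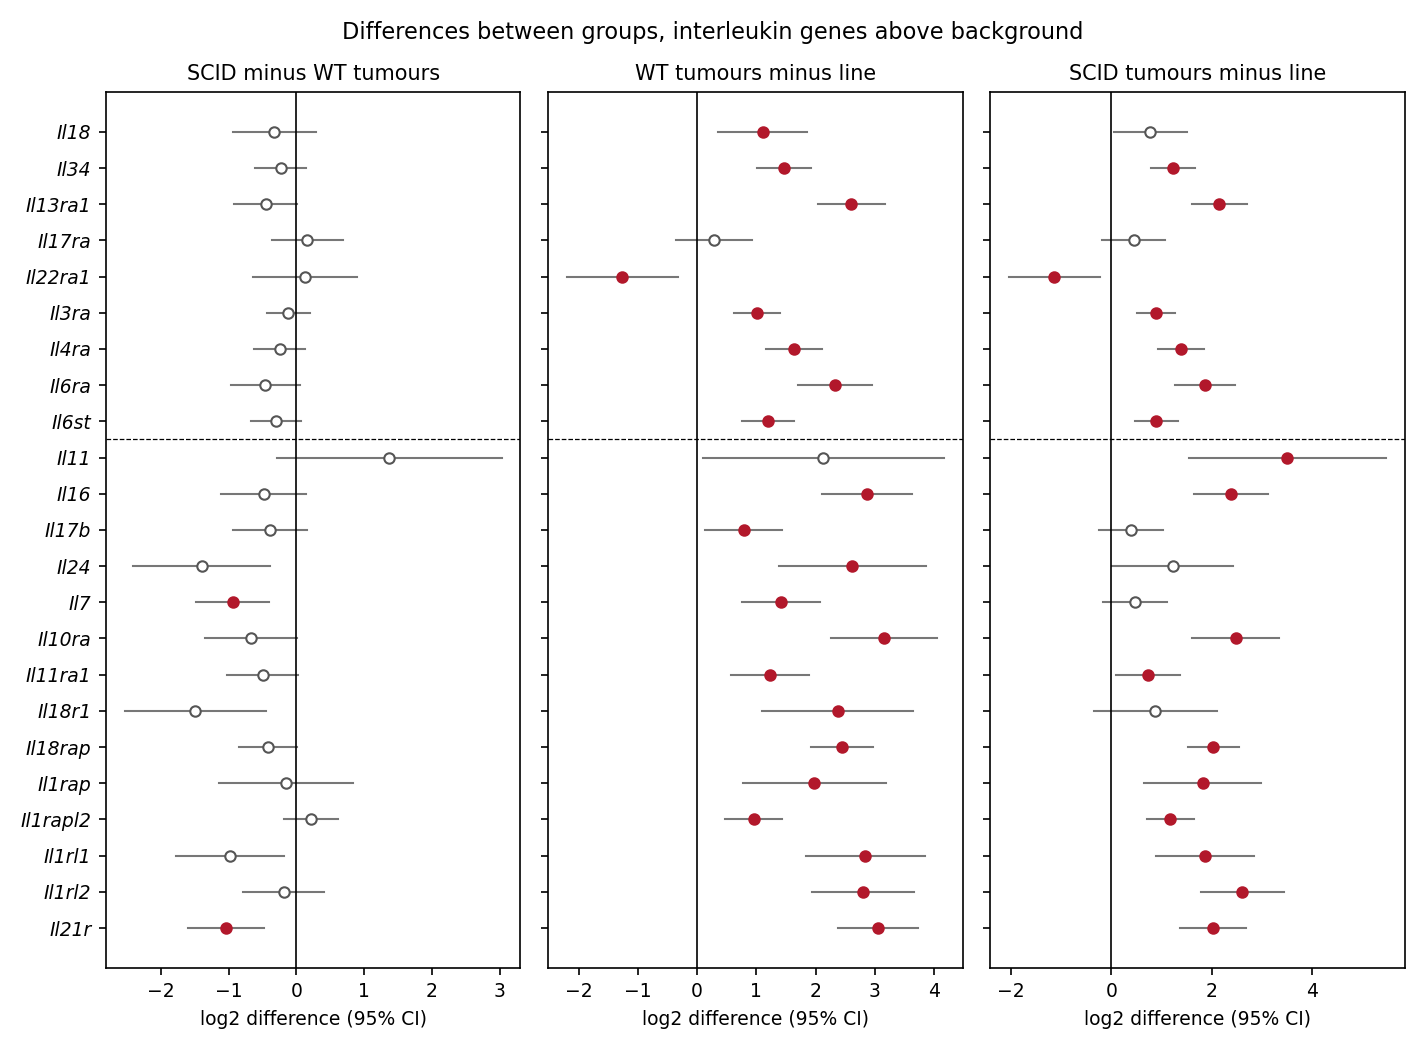
Log2 difference with its 95% interval for the 23 genes above background in at least 1 sample, in SCID minus WT tumours, WT tumours minus line and SCID tumours minus line; filled points are called (adjusted p under 0.05) and open points are not. Under the deposited scaling Il21r and Il7 are called between hosts; against the line nearly all genes lie right of 0 and Il22ra1 alone lies left in both comparisons.

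The genes that pass these signals on were read from a list of 36 kinases, STAT factors, adaptors and partner chains, of which 28 were measured. Between hosts 5 of the 28 were called lower, none higher, and 23 were not called, with a median difference of -0.44 (15.7% of the panel was called lower, with a median of -0.33). Gata3, a factor of type 2 lymphocytes, fell by 1.32 (standard error 0.33, adjusted p = 0.0236 by limma), and Csf2rb fell by 1.23 (standard error 0.23, adjusted p = 0.00637). Tyk2 and Cd4 were also among those called lower, Cd4 at background in both hosts. Against the line, 20 of the 28 were called higher in WT tumours and 16 in SCID tumours, beside 67.1% and 51.6% of the panel, and none lower.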

How the data were processed

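Total RNA was read on a NanoString nCounter panel in 2 cell line samples, 5 WT tumours and 5 SCID tumours, per the labels. The authors deposited log2 values for 750 genes, and a second table of linear signal values for 749 of them. The log2 values were the base 2 logarithm of those deposited signal values, with a largest difference of 5.4e-09. Each sample's values were whole multiples of 1 step (100% within 0.02 counts), and dividing by the step gave the counts used for background and depth. Which software, reference genes or background treatment went into the normalization is not given in the sources used here.

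Groups came from the labels. Differences were tested with limma 3.58.1 in R 4.3.3 on the deposited log2 values of all 750 genes, with Benjamini-Hochberg adjustment over all genes and calls at adjusted p under 0.05. The comparison of hosts used the tumours alone (n = 4 WT, n = 5 SCID); those with the line used 1 fit of all 3 groups (n = 2 for the line). The fit was tested on simulated data. A fold with "at least" sets the dimmer group, per sample, at the higher of its level and the background. The bound is on the normalised scale, where equal counts already read 0.64 (WT) or 0.54 (SCID) higher in log2 than in the line. The bounds of Il16 and Il7 in WT tumours and of Il1rl1 and Il11ra1 in SCID tumours lie within that shift. A p-value beside such a fold tests the deposited levels, not the bound. The counts limit precision near background: 38.25 counts is the threshold, and the 33 genes that set it had a median of 16.

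Every gene called in a comparison or above background in a tumour is named; sample values are given for genes called between hosts with a group above background and for the 5 largest changes above background against the line, and any further genes with sample values were picked with their values in view. The genes and lists were chosen with earlier results of these data known. Promoter windows came from RefSeq (GRCm38.p6); 34 of 46 genes matched. Alternatives covered scaling, filters, low values, blocks and left-out samples. Same-numbered tumours of the 2 hosts were not paired by any label. An item named by these rules is not reported here.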

Additional observations from a re-analysis of the deposited data

Results flagged for a closer look

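In 46 groups tested over 23 genes, 2 held a tumour far from the others, where chance gives about 1 in 20 groups. Il1rap was 6.99 on the log2 scale in SCID tumour 5, with the next SCID tumour at 6.10 and the lowest at 5.78. Il22ra1 was 5.13 in WT tumour 1, with the next WT sample at 6.26 and the highest, the mean of tumours 2 and 3, at 6.50.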

How the results depend on the processing

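Between hosts, 3 genes were called lower. That count was 0 under TMM scaling, under median scaling and with low values raised to background, 5 in a fit of all 3 groups, and 7 with WT tumours 2 and 3 apart, with the title series (titles ending in N or not) as a block or with the title number as a random block. The panel shares called lower in these fits were, in that order, 7.47%, 4.93%, 6.4%, 16.9%, 20.7%, 19.9% and 18.7%, against 15.7% in the main fit. It ranged from 0 (without SCID tumour 3) to 7 (without WT tumour 1) over left-out samples; without the averaged pair, WT tumour 5, SCID tumour 1 or SCID tumour 2 it was 1. Without both WT tumour 1 and SCID tumour 5, 8 were called lower and 1 higher (25.2% and 0.8% of the panel). Median scaling called 4 higher (6.53% of the panel). Il21r kept its call in all left-out samples but SCID tumour 3 (adjusted p = 0.0518 by limma). The replicate block gave 6 lower (21.3% of the panel), but numbers do not pair the tumours (correlations of deviations -0.41 to 0.24).

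Against the line, 33 genes were called higher in WT tumours (67.1% of the panel). The count was 10 under TMM scaling (32.8%) and 18 with a filter on background (70.3% of 542 genes). With low values raised it was 8 (32.0%) and under median scaling 0 (14.1%). Median scaling called 34 lower (64.4%) and TMM called 3 lower (19.7%). In SCID tumours 19 were called higher (51.6% of the panel). The count was 10 under TMM scaling (27.5%), 5 with low values raised (18.8%) and 0 under median scaling (13.5%). Median scaling called 33 lower (64.1%), TMM called 2 lower (15.9%) and the larger title series 0 (2.67%). The 1 lower gene ranged from 0 to 1 over left-out samples in both. These scalings moved the median of all genes from 1.21 to -1.40 (median) and 0.16 (TMM) in WT tumours, from 0.81 to -1.20 and 0.08 in SCID tumours, and from -0.33 to 0.28 and -0.00 between hosts.

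Median scaling turned these signs. Between hosts, Il13ra1 became 0.15. In WT tumours against the line, Il11ra1 became -1.38, Il13ra1 -0.0053, Il18 -1.50, Il18r1 -0.23, Il18rap -0.15, Il1rap -0.63, Il34 -1.13, Il3ra -1.59, Il4ra -0.97, Il6ra -0.28, Il6st -1.40, Il7 -1.19, Il17ra -2.32 and Il11 -0.47. In SCID tumours, Il11ra1 became -1.27, Il1rap -0.18, Il1rapl2 -0.83, Il1rl1 -0.14, Il34 -0.76, Il3ra -1.11, Il4ra -0.61, Il6ra -0.14, Il6st -1.10, Il17ra -1.56, Il18 -1.22 and Il18r1 -1.12. Among the genes followed, TMM scaling turned Il3ra (-0.026) and Il17ra (-0.75) in WT tumours and Il17ra (-0.27) in SCID tumours. In WT tumours Il17ra was then called lower. Il17a, at background and not followed, was called lower in WT tumours under TMM scaling, against a difference of 0.10 under the deposited scaling. The cause was not tested. Genes above background numbered 23, or 17 with the level at the mean plus 2 SD and 9 at the highest count. The planned count test was not run.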
